A study of Homo sapiens with 6 samples.

Results

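Immunoglobulin constant and variable genes were examined in KMS27 cells, a human cell line of multiple myeloma, which is a cancer of plasma cells. The genes were selected on their symbol in the deposited table and on the deposited values: a gene was kept if its TPM, an abundance per transcript length with the same sum in each library, was above 0 in at least 1 of 6 libraries. The symbols named 459 gene IDs, of which 99 were above 0, out of 63677 gene IDs in all, and the other 360 were listed at 0 in every library. The lowest value just inside the rule was IGKV6D-21, with a mean of 1.24e-09 TPM. The rule was written to leave out orphon genes, copies that lie outside the immunoglobulin loci, by a slash in their symbol. The table spells these symbols without the slash, so 14 orphon IDs stayed among the 99, and 85 IDs remained without them. None of the 14 reached a mean of 1 TPM.

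Of the 6 libraries, 3 came from KMS27 cells with HA-TAZ overexpression and 3 from KMS27 cells labelled wild type. TAZ is a transcriptional coactivator encoded by WWTR1, and HA is a short peptide tag added to it. All libraries were made from total RNA after depletion of ribosomal RNA, with a stranded kit, and were sequenced from both ends. Libraries with HA-TAZ are numbered 1 to 3 as in their titles, and the others are named control a, b and c, since their columns could not be tied to a single wild type sample. All cells are of 1 line, and the promoter of the HA-TAZ construct, the number of clones and whether the control cells carried a construct are not given in the sources used here. Libraries were made in triplicate, and nothing in the labels says that they came from separate cultures, so the tests measure the spread between these libraries, which may be technical. WWTR1 had 293, 306 and 293 TPM in the HA-TAZ libraries and 2.69, 2.22 and 1.69 TPM in the controls, as the labels state. In bulk RNA, a change in the number of cells that express a gene cannot be told apart from a change in RNA per cell.

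An immunoglobulin is built from heavy and light chains, and each chain has a variable region that binds antigen and a constant region. In a developing B cell the heavy chain locus and then the kappa or the lambda light chain locus are rearranged, so that a variable segment is joined to a joining segment (with a diversity segment between them in the heavy chain) and is transcribed together with a constant gene. A clone of plasma cells therefore usually makes a single heavy chain and a single light chain, the latter either kappa or lambda, and secretes them in large amounts. Some myelomas make light chains without a heavy chain. Variable regions are also altered by somatic hypermutation, so the RNA of a clone need not match the germline gene to which its reads are assigned.

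The sequences of 3 lambda constant genes and 1 lambda variable gene are shown first, because the results turn on them and because the constant genes are close copies of each other. They are germline reference sequences on the plus strand of GRCh38, read from transcripts of GENCODE release 29, and no sequence of the KMS27 transcripts was analysed here. IGLC3 lies at chr22:22906342-22906641, IGLC2 at chr22:22900976-22901275 and IGLC7 at chr22:22922594-22922893. Each stretch is the first 300 bases of the single coding exon. Capitals mark the bases of IGLC3 and IGLC2 that differ between them, and in IGLC7 the bases that differ from IGLC3.
IGLC3: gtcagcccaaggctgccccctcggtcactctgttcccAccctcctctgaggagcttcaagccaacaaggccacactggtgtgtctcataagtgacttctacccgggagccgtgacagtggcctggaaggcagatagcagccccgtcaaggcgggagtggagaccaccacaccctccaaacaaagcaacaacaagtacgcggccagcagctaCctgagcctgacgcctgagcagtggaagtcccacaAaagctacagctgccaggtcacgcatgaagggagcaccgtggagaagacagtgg
IGLC2: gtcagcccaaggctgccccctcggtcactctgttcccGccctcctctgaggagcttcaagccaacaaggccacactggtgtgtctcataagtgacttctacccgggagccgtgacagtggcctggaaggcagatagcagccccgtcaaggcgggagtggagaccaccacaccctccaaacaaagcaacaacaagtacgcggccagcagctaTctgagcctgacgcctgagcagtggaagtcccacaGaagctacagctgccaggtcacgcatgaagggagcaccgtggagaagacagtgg
IGLC7: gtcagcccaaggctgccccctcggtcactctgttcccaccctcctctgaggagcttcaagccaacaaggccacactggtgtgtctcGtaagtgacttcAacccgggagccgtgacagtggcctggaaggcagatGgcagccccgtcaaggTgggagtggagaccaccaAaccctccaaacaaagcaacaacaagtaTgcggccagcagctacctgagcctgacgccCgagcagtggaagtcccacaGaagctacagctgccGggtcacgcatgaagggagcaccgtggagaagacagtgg
Counted from base 1 of each stretch, IGLC2 differs from IGLC3 by A38G, C212T and A247G, where the first letter is that of IGLC3. Over the whole transcripts of 462 bases, IGLC3 and IGLC2 differ at 4 positions. IGLC7 differs from IGLC3 at 9 of the first 300 bases. Of the 432 overlapping words of 31 bases in IGLC3, 308 also occur in IGLC2 and 73 in no other transcript of the annotation. In IGLC1, 0 of 430 words were its own, and all of them occur in IGLL5, a gene that starts upstream of it and shares its constant exon. How reads are divided between these genes thus rests on few bases, and the values of IGLC2 and IGLC1 are uncertain. All 493 words of IGKC, the only kappa constant gene, were its own.

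The variable gene IGLV3-10 is shown over 300 bases of its second coding exon, at chr22:22811981-22812280. Capitals mark the 123 bases that lie in words of 31 bases shared with another transcript.
IGLV3-10: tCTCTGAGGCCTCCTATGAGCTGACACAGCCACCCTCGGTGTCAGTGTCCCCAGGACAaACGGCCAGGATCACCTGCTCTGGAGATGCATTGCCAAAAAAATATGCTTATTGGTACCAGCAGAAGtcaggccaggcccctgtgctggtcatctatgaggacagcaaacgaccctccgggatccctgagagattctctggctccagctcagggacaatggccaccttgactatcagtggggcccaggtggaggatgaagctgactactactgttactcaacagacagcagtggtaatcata
The words shared with IGLV3-10 were those of IGLV3-25 and IGLV3-16, with 35 and 29 of its 352 words, and 308 words were its own. The transcript versions of IGLC3 and IGLC2 are the same as in the authors' deposited table, and those of IGLV3-10 and IGLC7 are another version, so their bases could differ from the sequence to which reads were assigned.

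The immunoglobulin RNA of KMS27 was almost all lambda light chain, and it came from 1 variable and 1 constant gene. Together IGLC3 and IGLV3-10 held 97.8 to 98.3% of the summed TPM of all 99 members in each library. The members made up 1.13, 1.15 and 1.16% of all TPM in HA-TAZ 1, 2 and 3, and 0.911, 0.940 and 0.981% in controls a, b and c. The groups did not overlap, and their means were 1.15% ± 0.0131 and 0.944% ± 0.0353 (SD, n = 3 libraries each), a ratio of 1.22. Lambda genes accounted for 1.13% ± 0.0125 in HA-TAZ and 0.930% ± 0.0360 in control libraries, again without overlap. Kappa genes accounted for 0.0142% ± 0.000926 and 0.0132% ± 0.000642, and heavy chain genes for 0.000808% ± 0.0000615 and 0.000918% ± 0.0000935, with overlapping groups in both. These totals carry no test, since the members were chosen with earlier results of these data known.

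**Figure D1:**
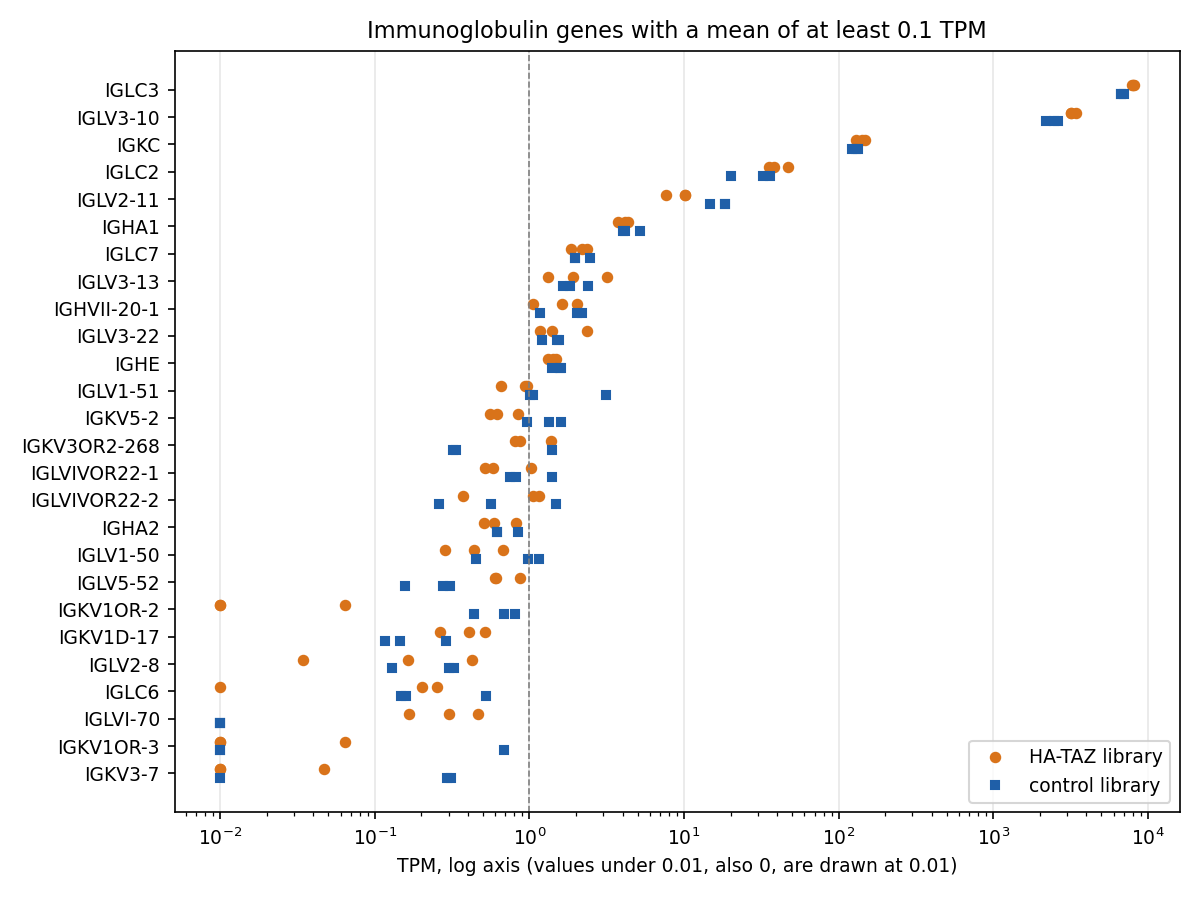
Deposited TPM (log axis) of the immunoglobulin symbols with a mean of at least 0.1 TPM, 1 symbol per row, with each HA-TAZ library as an orange circle and each control library as a blue square. IGHA1, IGHA2 and IGHE are sums over 2 gene IDs, values under 0.01 are drawn at 0.01, and the dashed line marks 1 TPM. IGLC3 and IGLV3-10 lie far to the right in every library, at 2178 TPM or more, and most other symbols lie near or under 1 TPM.

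IGLC3 (ENSG00000211679) had 7962, 8137 and 7947 TPM in HA-TAZ 1, 2 and 3, and 6735, 6718 and 6977 TPM in controls a, b and c. It ranked between place 10 and place 13 among all genes in each library. All HA-TAZ libraries were above all controls. IGLC2 (ENSG00000211677) had 37.9, 47.2 and 35.6 TPM in the HA-TAZ libraries and 20.0, 35.8 and 32.2 TPM in the controls. Control a was the lowest, and the groups overlapped. IGLC2 made up 0.297 to 0.577% of the sum of IGLC2 and IGLC3. That sum was 0.798 to 0.818% of TPM in HA-TAZ and 0.675 to 0.701% in control libraries, so the groups of the summed pair did not overlap.

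The remaining lambda constant genes were low. IGLC7 had 1.86, 2.17 and 2.37 TPM in HA-TAZ and 2.47, 1.97 and 1.98 TPM in control libraries, and the groups overlapped. IGLC6 had a mean of 0.214 TPM and was listed at 0 in HA-TAZ 1. IGLC1 had a mean of 0.0925 TPM and IGLC5, a pseudogene, of 0.0611 TPM. IGLC4 was listed at 0 in every library and is no member.

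IGKC (ENSG00000211592) had 130, 149 and 141 TPM in HA-TAZ 1, 2 and 3 and 133, 129 and 122 TPM in controls a, b and c. HA-TAZ 1 lay among the controls in deposited TPM. IGLC3 exceeded IGKC 50.8 to 61.4 times. The kappa constant gene stood without a variable partner of like level. The highest kappa variable gene was IGKV5-2, with a mean of 0.986 TPM, and all 25 kappa variable IDs above 0 added up to 2.41 to 3.00 TPM in HA-TAZ and 3.04 to 5.63 TPM in control libraries. In the lambda locus the variable genes added up to 3194 to 3466 TPM in HA-TAZ and 2205 to 2666 TPM in control libraries, beside 7985 to 8186 and 6756 to 7012 TPM of constant genes.

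No heavy chain constant gene was above 6 TPM in any library. IGHA1, the constant gene of the alpha1 chain of IgA, was the highest, with 4.17, 4.33 and 3.71 TPM in HA-TAZ and 5.19, 4.17 and 4.03 TPM in control libraries. It is listed under 2 gene IDs with identical values, which are summed here, and the other heavy chain constant genes are summed over 2 IDs as well, which have identical values except for IGHM. IGHE, the constant gene of IgE, had a mean of 1.47 TPM and IGHA2 of 0.667 TPM. IGHG1, IGHG2 and IGHG4, which encode constant regions of IgG, had means of 0.0465, 0.0233 and 0.0278 TPM, and IGHG3 was listed at 0. IGHM and IGHD, the constant genes of IgM and IgD, had means of 0.00983 and 0.0167 TPM. All heavy chain constant genes together had 6.02 to 6.52 TPM in HA-TAZ and 6.16 to 7.50 TPM in control libraries. Membrane and secreted forms could not be compared, since only IGHE and IGHG1 were listed with several transcripts and these were near 0.

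Among the variable genes, IGLV3-10 (ENSG00000211669) had 3192, 3176 and 3446 TPM in HA-TAZ 1, 2 and 3 and 2178, 2475 and 2640 TPM in controls a, b and c. The groups did not overlap, and control a was the lowest library. Its level relative to IGLC3 was 0.401, 0.390 and 0.434 in HA-TAZ libraries and 0.323, 0.368 and 0.378 in controls, again without overlap. IGLV2-11 (ENSG00000211668), the second most abundant variable gene, went the other way. It had 7.61, 10.1 and 10.1 TPM in HA-TAZ and 18.5, 14.6 and 18.3 TPM in control libraries. Every control library was above every HA-TAZ library. In deposited TPM, 43.6% of all genes with a mean of at least 1 TPM were lower without overlap, and 4.41% were higher. The ratio of IGLV3-10 to IGLV2-11 was 314 to 419 in HA-TAZ and 118 to 169 in control libraries.

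IGLV3-13, a pseudogene, followed with a mean of 2.05 TPM, and its groups overlapped. IGLV3-22 had a mean of 1.53 TPM and IGLV1-51 of 1.29 TPM, the latter raised by control a at 3.13 TPM, with all other libraries at or under 1.05 TPM. The highest heavy chain variable gene was IGHVII-20-1, at a mean of 1.68 TPM, and its transcript has no entry in GENCODE release 29. IGHVIII-5-2 and IGHV4-34 came next, at 0.0970 and 0.0618 TPM, and the 3 HA-TAZ libraries and at least 1 control had 0 TPM of either. After IGKV5-2, the kappa variable genes with the highest means were orphons, of the IGKV3 family at 0.851 TPM and IGKV1OR-2 at 0.332 TPM.

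**Figure D2:**
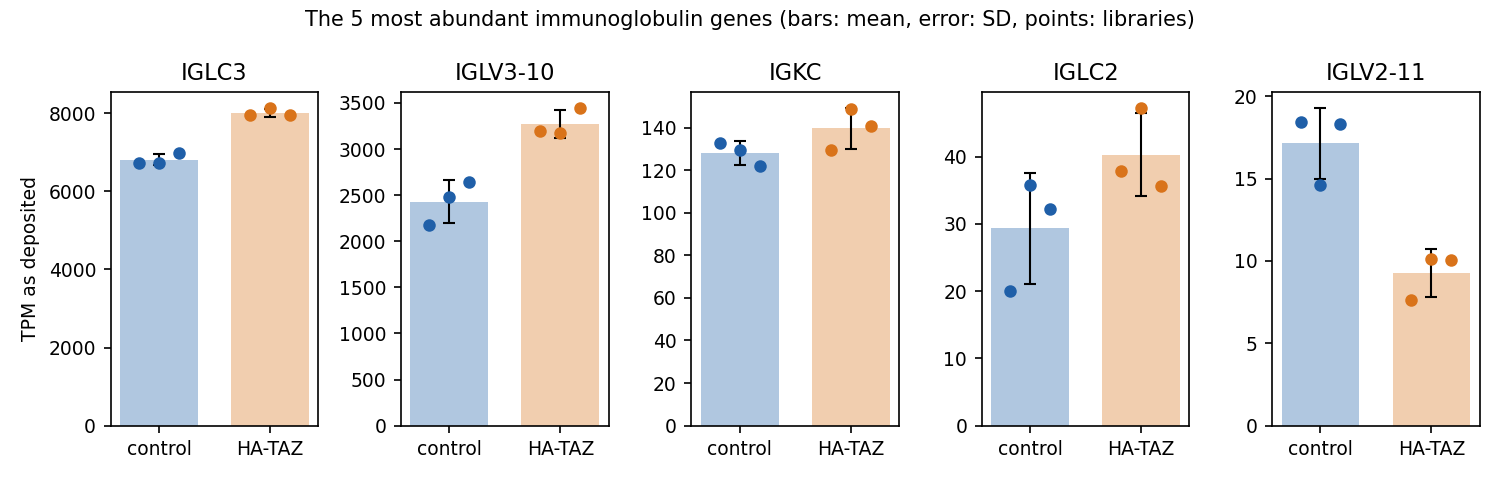
Deposited TPM of the 5 immunoglobulin genes with the highest means, each on its own axis from 0, for control (blue) and HA-TAZ (orange). Bars are means, error bars are the SD of 3 libraries and points are libraries. The groups are apart for IGLC3, IGLV3-10 and IGLV2-11, and IGLV2-11 is the gene with the lower HA-TAZ mean.

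Most members were near the lower end of what the files list. Of the 99 IDs, 87 had a mean under 1 TPM and 70 under 0.1 TPM. Above 0 were 29 of 255 heavy chain variable IDs, 25 of 102 kappa variable IDs and 22 of 76 lambda variable IDs. In all, 27 IDs were above 0 in every library and 44 in 1 library alone. Values equal in all 6 libraries to those of another member were found for 42 IDs, most of them heavy chain IDs. GENCODE release 29 classes 38 of the 99 IDs as variable genes, 21 as variable pseudogenes and 13 as constant genes, and 24 IDs have no entry in it. Of the 87 IDs under a mean of 1 TPM, the deposited TPM of the groups did not overlap for 2 with higher and 2 with lower HA-TAZ values. Over all 24720 genes above 0 with such means, this was found for 3.14% in the higher and 15.5% in the lower direction. The higher IDs were IGLV5-52, at 0.602 to 0.865 TPM in HA-TAZ and 0.156 to 0.309 TPM in control libraries, and IGLVI-70, which was listed at 0 in the controls. The lower IDs were IGKV5-2 and IGKV1OR-2. In scaled TPM the groups of IGKV5-2 overlapped, and it was 5 IDs higher and 1 lower, beside 5.15% and 8.50% of these genes. The 5 were both IDs of IGHE, IGLV5-52, IGLVI-70 and IGKV1D-17, and the 1 was IGKV1OR-2. All of these were singled out after their values were seen.

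The order of genes in the lambda locus was taken from GENCODE release 29. Of its variable, joining and constant genes there, 87 were matched to the deposited values by gene ID or symbol. Positions and counts below are among these 87. IGLV2-11 is the next gene upstream of IGLV3-10. Between IGLV3-10 and IGLC3 lie 14 genes, and apart from IGLC2 none of them had a mean above 0.230 TPM, the value of IGLV2-8. Of these 14, 9 are variable genes and 3 of the 9 were above 0. Upstream of IGLV3-10 lie 63 variable genes, of which 16 were above 0 and 4 had a mean of at least 1 TPM. Downstream of IGLC3, IGLC7 was the highest. Among the 73 matched variable genes of the locus, the highest mean of any gene other than IGLV3-10 was thus that of its direct neighbour.

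**Figure D3:**
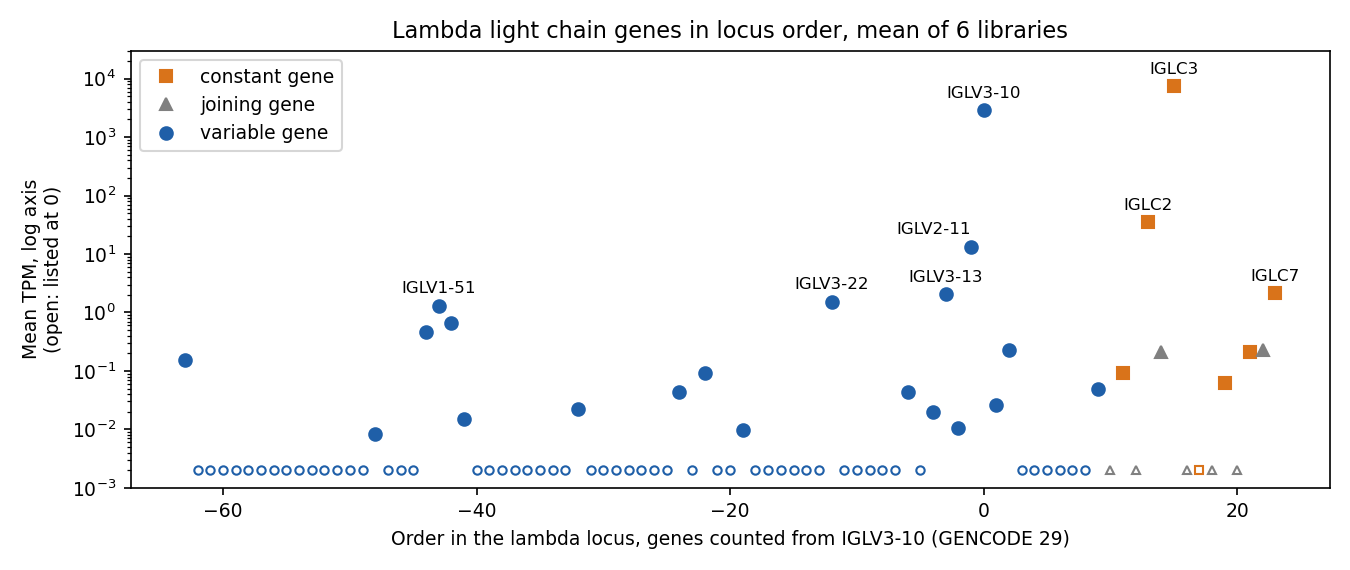
Mean TPM over 6 libraries (log axis) of the 87 matched lambda genes in their order in the locus, counted from IGLV3-10 at 0. Variable genes are circles, joining genes are triangles and constant genes are squares, and genes listed at 0 are open symbols at the bottom. IGLV3-10 and IGLC3 stand apart, and IGLV2-11 lies beside IGLV3-10.

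The comparison of HA-TAZ with control cells asks which transcripts change with TAZ overexpression. It was made with limma on log2(scaled TPM + 1), where scaled TPM is TPM divided by a median-of-ratios factor per library, over the 22651 genes with a mean of at least 1 TPM. IGLC3, IGLV3-10 and IGKC were higher in HA-TAZ cells, at an adjusted p under 0.05. No member was lower past that threshold. Of the 99 members, 12 IDs of 11 symbols passed the filter on level, 3 were called higher and 0 lower, and at an unadjusted p under 0.05 it was 4 and 1. Over all genes tested, 7.29% were called, 4.67% higher and 2.63% lower, and at an unadjusted p under 0.05 it was 16.6% higher and 14.1% lower. For the 12 IDs the median log2 fold change was 0.22, beside -0.03 over all genes tested, and 10 of the 12 were positive. On deposited TPM the median was 0.02, beside -0.27 over all genes tested, and 6 of the 12 were positive. The share of positive values over all genes was not counted. The 12 include both IDs of IGHA1, and also IGLC2 and IGLC3, which share most of their words. IGLV1-51 passed the filter through control a.

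The scaled TPM of IGLC3 was 9197, 8415 and 8931 in the HA-TAZ libraries and 5570, 6161 and 6599 in the controls. Its log2 fold change was 0.54 (SE 0.11, adjusted p = 0.0473). For IGLV3-10 scaled TPM was 3687, 3284 and 3873 against 1801, 2270 and 2497, with a log2 fold change of 0.73 (SE 0.14, adjusted p = 0.0431). For IGKC it was 150, 154 and 158 against 110, 119 and 115, with a log2 fold change of 0.42 (SE 0.05, adjusted p = 0.0135). In scaled TPM the groups of all 3 genes were apart. These calls lie close to the threshold. None of the calls of IGLC3 and IGLV3-10 held when any 1 library was left out (adjusted p from 0.0732 to 0.150 and from 0.0602 to 0.139), and that of IGKC held only without control a or without control c (0.0359 and 0.0471, up to 0.0681 without the others).

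The scaling matters for the size of these differences, because it moved the median log2 fold change over all genes from -0.27 in deposited TPM to -0.03. On deposited TPM, limma called 3329 genes, 261 higher (1.15%) and 3068 lower (13.5%), against 1057 higher and 595 lower on scaled TPM. IGLV3-10 was higher on both scales, with 0.43 on deposited TPM (SE 0.09, adjusted p = 0.0385). IGLC3 had 0.24 (SE 0.07, adjusted p = 0.0646) and IGKC 0.12 (SE 0.07, adjusted p = 0.223) on deposited TPM. IGLV2-11 had a log2 fold change of -0.54 (SE 0.13, adjusted p = 0.0569) on scaled TPM and of -0.82 (SE 0.14, adjusted p = 0.0321) on deposited TPM, where it passed the threshold. Among the 12 tested IDs the groups did not overlap for 5 with higher and 1 with lower scaled TPM in HA-TAZ libraries, beside 20.2% and 18.3% of all genes tested. On deposited TPM it was 2 higher and 2 lower, beside 4.41% and 43.6%.

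The other tested members did not pass the threshold on either scale. IGLC2 had a log2 fold change of 0.76 (SE 0.26, adjusted p = 0.116), the highest estimate of the 12 IDs. IGLC7 had 0.20 and IGHA1 0.12, both with values near 0 or below on deposited TPM (-0.00243 and -0.0876). IGLV3-22 had 0.28, IGLV3-13 0.24, IGHVII-20-1 0.07 and IGLV1-51 -0.31, with adjusted p-values from 0.394 to 0.856. The pseudocount of 1 makes the change of genes near 1 TPM look smaller than it is.

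**Figure D4:**
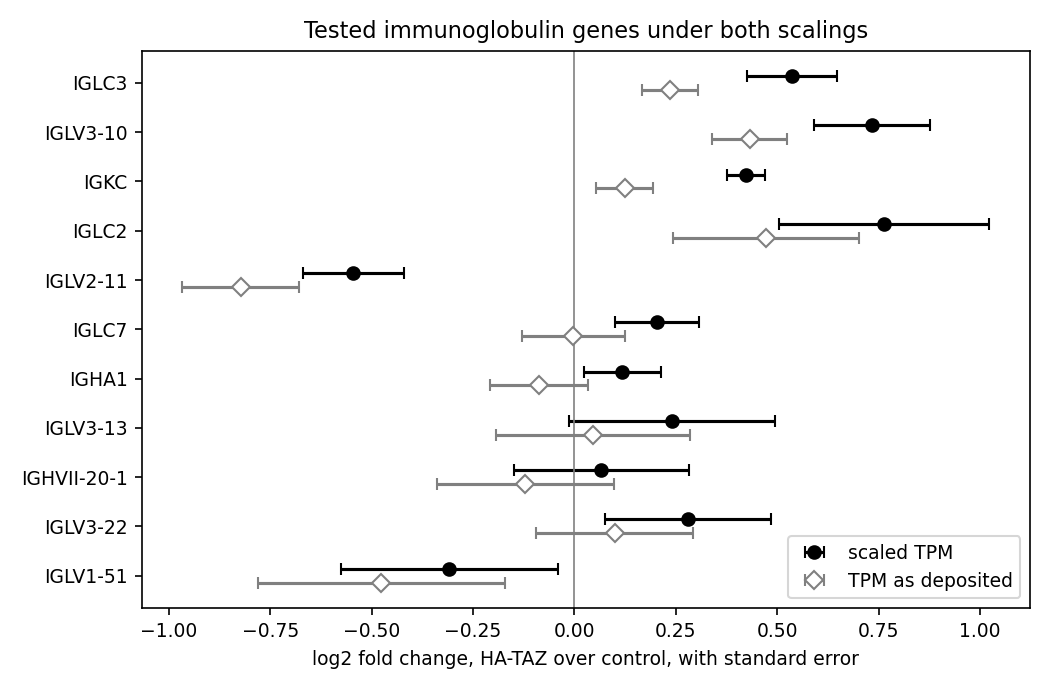
Log2 fold change of HA-TAZ over control with its standard error for the 11 tested immunoglobulin symbols, from scaled TPM (black circles) and deposited TPM (grey diamonds), on the log2(value + 1) scale. Every estimate is lower on deposited TPM, and those of IGLV3-10 and IGLC2 stay above 0.4 on both scales.

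At the level of transcripts, limma called 0 of the 12 member transcripts tested, beside 0.534% of all 57448 transcripts tested. Each tested member ID has 1 transcript above the filter, so its fold change repeats that of the gene test. The variances were estimated anew over all transcripts tested, and the p-values were adjusted over this larger family. At an unadjusted p under 0.05 the counts were again 4 higher and 1 lower, beside 24.1% of all transcripts tested in either direction. With a mean of at least 5 TPM required, 3 of 5 member transcripts were called higher, beside 7.18% of all 16904. The authors' deposited table, which tests estimated counts per transcript, gave statistics for 25 of 115 member transcripts. In the authors' deposited table, 3 of them had a q-value under 0.05 with a higher and 1 with a lower value in HA-TAZ, beside 4.08% and 1.60% of all 109487 transcripts with statistics. The authors' deposited table put IGLC3 at 0.37, IGLV3-10 at 0.51 and IGKC at 0.30 on the natural log scale, and IGLV2-11 at -0.41 with a q-value of 0.0381. The mean level in the authors' deposited table corresponds to 129233 estimated counts for IGLC3, 36307 for IGLV3-10, 2854 for IGKC and 172 for IGLV2-11 in a typical library.

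Genes that act with or on immunoglobulins were grouped into 5 lists. The joining chain, encoded by IGJ (now JCHAIN), links the subunits of polymeric IgA and IgM. IGJ had 2517, 2618 and 2234 TPM in HA-TAZ and 4082, 3675 and 3617 TPM in control libraries, so it was lower in every HA-TAZ library. In deposited TPM, 43.6% of all genes tested were lower without overlap. The log2 fold change of IGJ on scaled TPM was -0.33 (SE 0.08, adjusted p = 0.0654), short of the threshold, and on deposited TPM -0.63 (adjusted p = 0.0263), past it. On scaled TPM it was called in 0 of 6 fits with 1 library left out. The other listed partners were under 1 TPM in every library. The highest was VPREB3, with 0.183, 0.0642 and 0.376 TPM in HA-TAZ and 0.890, 0.541 and 0.906 TPM in control libraries. Of all genes above 0 with a mean under 1 TPM, 15.5% were lower without overlap in deposited TPM. CD79A and CD79B, the signalling chains of the B cell receptor, had at most 0.124 and 0.0463 TPM, and IGLL5 was listed at 0.

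Of the genes for recombination, hypermutation and class switching, 10 of 14 were tested, and limma called 0, beside 7.29% of all genes tested. At an unadjusted p under 0.05 it was 1 higher and 0 lower, beside 16.6% and 14.1% of all genes tested. RAG1, part of the recombinase, had at most 0.521 TPM. The highest were the DNA repair genes APEX1 and PRKDC, with log2 fold changes of 0.01 and 0.07. Of the genes for transcription and RNA processing, 13 were tested. Of these, 1 was called higher and 0 lower, beside 4.67% and 2.63% of all genes tested. The gene called was ELL2, an elongation factor that favours the secreted form of heavy chain RNA in plasma cells. It had 66.4, 73.9 and 70.4 TPM in HA-TAZ and 57.5, 45.3 and 42.0 TPM in control libraries, with a log2 fold change of 0.84 (SE 0.07, adjusted p = 0.00789), and missed the threshold only without HA-TAZ 1 (0.0518). IRF4 and TCF3, transcription factors of B lineage cells and the most abundant of the list, had -0.13 (adjusted p = 0.334) and 0.23 (adjusted p = 0.0674).

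Of 16 tested symbols for folding and assembly in the endoplasmic reticulum, 1 was called higher and 2 lower. The shares over all genes tested were 4.67% and 2.63%. HSP90B1, a chaperone of the endoplasmic reticulum, had 276, 297 and 270 TPM in HA-TAZ and 300, 280 and 258 TPM in control libraries, which overlap. It had a log2 fold change of 0.31 (adjusted p = 0.0239) on scaled TPM and 0.01 on deposited TPM. TXNDC5, a protein disulfide isomerase, had 228, 244 and 232 TPM in HA-TAZ and 370, 368 and 355 TPM in control libraries, with -0.33 (adjusted p = 0.0322). ERO1LB, an oxidase that serves these isomerases, had 4.23, 4.54 and 3.96 TPM against 9.35, 7.98 and 6.83 TPM, with -0.52 (adjusted p = 0.0345). HSP90B1 and ERO1LB lost the call whenever 1 library was left out, and TXNDC5 kept it in 1 of 6 such fits. PPIB and HSPA5, the most abundant of the list, had 0.15 and 0.14 and did not pass. Of the 6 tested genes for receptors and transport limma called 0. At an unadjusted p under 0.05 it was 2 higher and 2 lower, beside 16.6% and 14.1% of all genes tested. TRIM21, a cytosolic antibody receptor, had 0.20, and FCRL5, an Fc receptor-like protein, had -0.43 (adjusted p = 0.0684). The medians of the 4 lists with several genes tested were 0.02, 0.07, -0.01 and -0.10, near that of all genes.

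**Figure D5:**
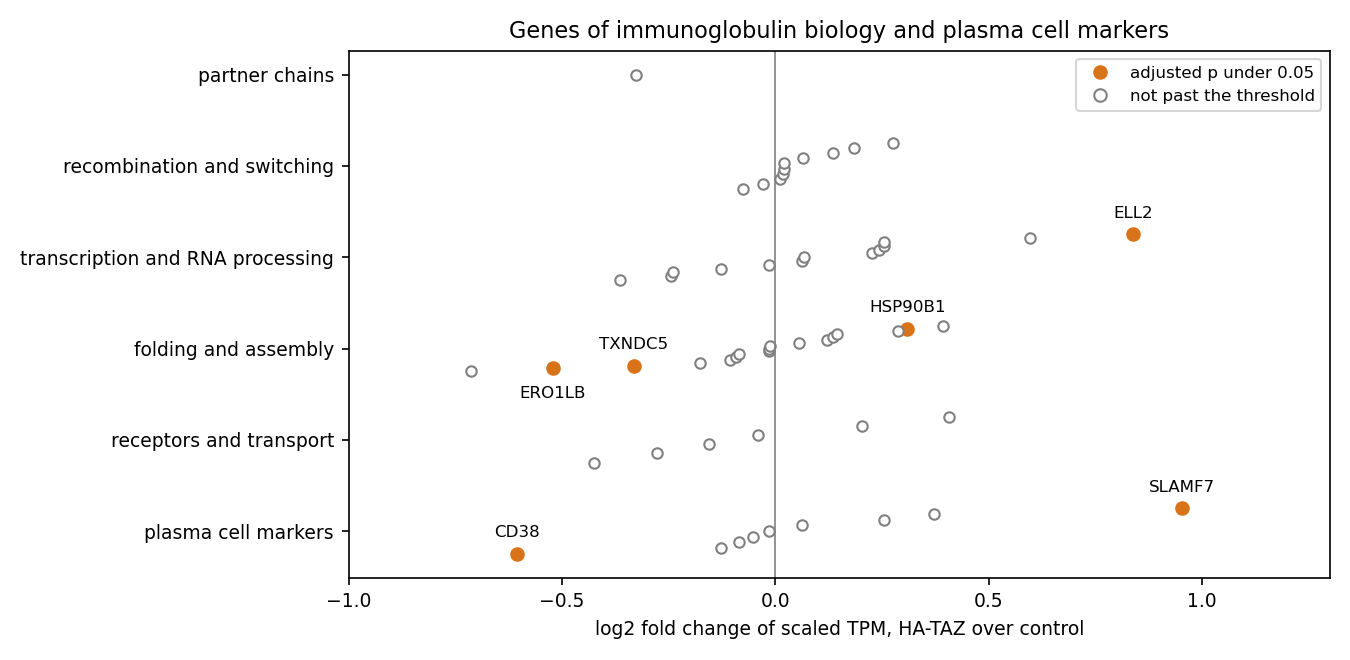
Log2 fold change of scaled TPM, HA-TAZ over control, for the tested genes of 5 lists on immunoglobulin biology and of the plasma cell markers, 1 row per list and 1 point per gene ID. Filled and named points passed an adjusted p of 0.05, and open points did not. ELL2, HSP90B1 and SLAMF7 passed to the right of 0, and ERO1LB, TXNDC5 and CD38 to the left.

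The label of plasma cells was checked on markers. Of 10 plasma cell markers, 9 had a mean of at least 1 TPM, led by IRF4 and XBP1, and CD27 was at most 0.324 TPM. SLAMF7 was higher in HA-TAZ cells (log2 fold change 0.95, adjusted p = 0.0128) and CD38 lower (-0.61, adjusted p = 0.0226), while XBP1 had 0.06 (adjusted p = 0.354). Among the 9 tested markers 1 was called higher and 1 lower, beside 4.67% and 2.63% of all genes tested. SLAMF7 had 6.55, 6.70 and 7.78 TPM in HA-TAZ and 4.51, 3.78 and 3.50 TPM in control libraries, and kept its call in 4 of 6 fits with 1 library left out. CD38 had 8.62, 10.98 and 9.59 TPM against 18.5, 19.5 and 18.3 TPM, and kept its call in 1 of 6. On deposited TPM, 1 of the 9 tested markers was called higher and 4 lower, XBP1 among them (-0.24, adjusted p = 0.0489). Over all genes tested on that scale, 1.15% were called higher and 13.5% lower. The summed TPM of the 10 markers was 591 to 644 in HA-TAZ and 691 to 795 in control libraries. In deposited TPM, 43.6% of all genes tested were lower without overlap. The median log2 fold change of the 9 markers was -0.02 on scaled TPM and -0.31 on deposited TPM. Over all genes tested it was -0.03 and -0.27. Of 8 B cell markers only CR2 had a mean of at least 1 TPM, at 8.27 to 9.78 TPM, and the defining markers MS4A1 and PAX5 were at most 0.198 TPM. The markers of T and NK cells, of myeloid cells and of epithelial or stromal cells each summed to at most 8.03 TPM in any library, with S100A8 and S100A9 listed at 0. The erythroid markers summed to 8.74 to 15.1 TPM in HA-TAZ and 8.34 to 21.2 TPM in control libraries, most of it HBA2.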

How the data were processed

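Members, gene lists and tests were chosen with earlier results of these data known. The authors deposited TPM per transcript for 6 libraries, and a table of p-values, q-values and effects on the natural log scale, per the file headers. kallisto 0.46.0, sleuth 0.30.0 and the build GRCh37 are named, with no role, per the submitters' processing notes. The annotation release and the use of strand in quantification are not given in the sources used here. TPM carries no depth per library, so precision was judged from the spread between libraries. From the authors' deposited table, a typical library had about 52795484 estimated counts, as the sum of the means.

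Columns named for TAZ were tied to HA-TAZ samples by title. The other 3, whose name is in no label, were taken as wild type by elimination. No other per-sample column was found.

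TPM was summed per gene ID. TPM was divided by a median-of-ratios factor over 21512 genes above 0 in every library (0.866, 0.967 and 0.890 for HA-TAZ 1 to 3, 1.21, 1.09 and 1.06 for controls a to c). Genes or transcripts with a mean of at least 1 TPM were tested with limma 3.58.1 in R 4.3.3 (two-sided, trend over the mean level) on log2(scaled TPM + 1), with a threshold of 0.05 on p-values adjusted over all of them by Benjamini-Hochberg.

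Named are all detected constant genes, the 3 most abundant variable genes per chain, every called member, and from each list the called genes and the 2 most abundant. Alternatives were pseudocounts of 0.1 and 5, no filter, a filter of 5 TPM, deposited TPM, factors from other genes, limma without trend, sums per symbol and leaving out each library. Sequences, gene types and gene order come from GENCODE release 29. Python 3.11.15, pandas 2.3.3, numpy 2.4.6 and matplotlib 3.10.9 were used.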

Additional observations from a re-analysis of the deposited data

How the results depend on the processing

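The count of all genes called moved from 1652 to 691 with no filter on level, 3329 on deposited TPM, 758 without the trend and 115 to 433 with 1 library left out. Members called higher went from 3 to 1 with no filter, 1 on deposited TPM and 0 to 1 with 1 library left out. Members called lower went from 0 to 1 with no filter, with a mean of at least 5 TPM and on deposited TPM. The member called lower was IGLV2-11 in the latter 2 settings. With no filter it was another ID, with a mean under 1 TPM. Transcripts called went from 307 to 108 with no filter, 1655 with a mean of at least 5 TPM, 120 on deposited TPM, 156 without the trend and 12 to 91 with 1 library left out, and member transcripts called higher from 0 to 3 with a mean of at least 5 TPM. Over the 5 gene lists, genes called higher went from 2 to 6 with a mean of at least 5 TPM, 1 on deposited TPM, 1 without the trend and 0 to 2 with 1 library left out, and genes called lower from 2 to 0 with no filter, 10 on deposited TPM, 1 without the trend and 0 to 1 with 1 library left out. The difference in the immunoglobulin share of TPM, HA-TAZ minus control, was 0.206 percentage points. Computed in the same way from scaled TPM it was 0.422, which is no share, since scaled TPM does not have the same sum in each library. IGLC3 also lost its call with a pseudocount of 5 (adjusted p = 0.0576), with no filter (0.124) and with factors from other genes (0.0512), and IGLV3-10 with no filter (0.0874) and without the trend (0.0571). The cause of these shifts was not tested, and the fits that leave 1 library out also had fewer libraries.

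Signs of IGLC3, IGLV3-10, IGKC, IGLC2 and IGLV2-11 were the same in all 14 alternatives. On deposited TPM the log2 fold change turned to -0.00243 for IGLC7, -0.0876 for IGHA1 and -0.12 for IGHVII-20-1. It also turned to -0.29 for APEX1, -0.23 for PRKDC, -0.0725 for TCF3, -0.16 for PPIB and -0.16 for HSPA5. For TRIM21 it turned to -0.0723 and for XBP1 to -0.24. The heavy chain difference, HA-TAZ minus control, turned to 0.0000713 when computed from scaled TPM, where it is no share. APEX1 also turned to -0.0469 with factors from other genes. With 1 library left out, IGLV3-13 ranged from -0.00442 to 0.42, IGHVII-20-1 from -0.0919 to 0.22 and APEX1 from -0.0452 to 0.0735. No paired analysis was possible because the control columns could not be tied to numbered samples.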

Other observations

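The selection did not include joining segments, and the heavy chain joining segments IGHJ5 and IGHJ3P were listed at a TPM above that of every heavy chain constant gene. TPM is an abundance per transcript length, and the lengths and estimated counts of these segments were not examined. The higher TPM therefore does not show that more reads came from them than from the constant genes. IGHJ5 had 26.4 to 40.0 TPM in HA-TAZ and 29.4 to 34.6 TPM in control libraries, under each of 2 gene IDs with identical values, and its groups overlapped (limma adjusted p = 0.260). IGHJ3P, a pseudogene, had 7.38 to 8.52 TPM in HA-TAZ and 7.34 to 9.95 TPM in control libraries under each of its 2 IDs (adjusted p = 0.396). IGHJ6 had 0.392 TPM in control b under each of 2 IDs and was listed at 0 in the other libraries. The lambda joining segments IGLJ3 and IGLJ7 had means of 0.212 and 0.228 TPM and were listed at 0 in at least 4 libraries each.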
